A study of Mus musculus with 34 samples.

Results

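The 30 genes described here are markers of the oligodendrocyte lineage, measured in RNA from cortical astrocyte isolates. They were chosen by symbol, and all 30 were found among the 20613 genes with values in the deposited table and among the 14590 genes tested. Of these, Pdgfra, Cspg4 and Neu4 mark precursor cells, Gpr17, Enpp6 and Bcas1 mark cells committed to differentiation, and Lhfpl3 and C1ql1 are further precursor-enriched genes. The lineage transcription factors are Olig1, Olig2, Sox8, Sox10 and Nkx2-2, and the remaining 17 genes are classed here with myelinating cells. The class is a label and not a measured source, since Cnp had 192 to 290 TPM at P7, when Mobp was listed at 0.

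Oligodendrocytes wrap axons in myelin, a stack of membrane rich in a few proteins and in galactolipids. They arise from precursor cells that persist in the adult cortex, pass through a short committed stage, and then switch on the genes of the myelin membrane. Cortical myelin forms mainly after birth, so that its transcripts are low in the newborn and high in the adult brain.

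The study used magnetic isolation of cortical astrocytes from male wild-type (WT) mice to follow development and aging. There were 4 libraries each of postnatal day 7 (P7), P14 and 18 months (18m), 3 each of P21, P28, P60 and 12m, and 5 each of 3m and 6m. All groups shared genotype, sex, tissue and isolation method, and no group received a treatment. Whether the libraries of an age are separate animals is not stated in the labels, and p-values thus measure only the spread between libraries.

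Values are TPM, a measure of transcript share which scales each gene by its length and each library to the same sum, so that the depth of a library is unknown. The 12 astrocyte markers summed to between 10703 and 24934 TPM, while the 11 neuronal markers summed to between 42.4 and 617 TPM. Mural cell markers (8 genes) summed to between 1417 and 5793 TPM, and fibroblast markers (6 genes) to between 107.6 and 748 TPM. The isolates therefore held transcripts of several other cell types beside those of astrocytes. In bulk RNA, fewer cells of a type and less RNA per cell cannot be told apart. The number of genes with a TPM of 0 split the libraries into 3 ranges with gaps between them. It was 4109 to 4819 in 14 libraries (all of P7, P14 and 18m, and 12m replicates 1 and 2), 2854 to 3523 in 9 (P21, P28 and P60) and 1155 to 1704 in 11 (3m, 6m and 12m replicate 3). P14 against P7, P60 against P21, 6m against 3m and 18m against P14 lie within 1 range. In the other comparisons age and range cannot be told apart.

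**Figure D1:**
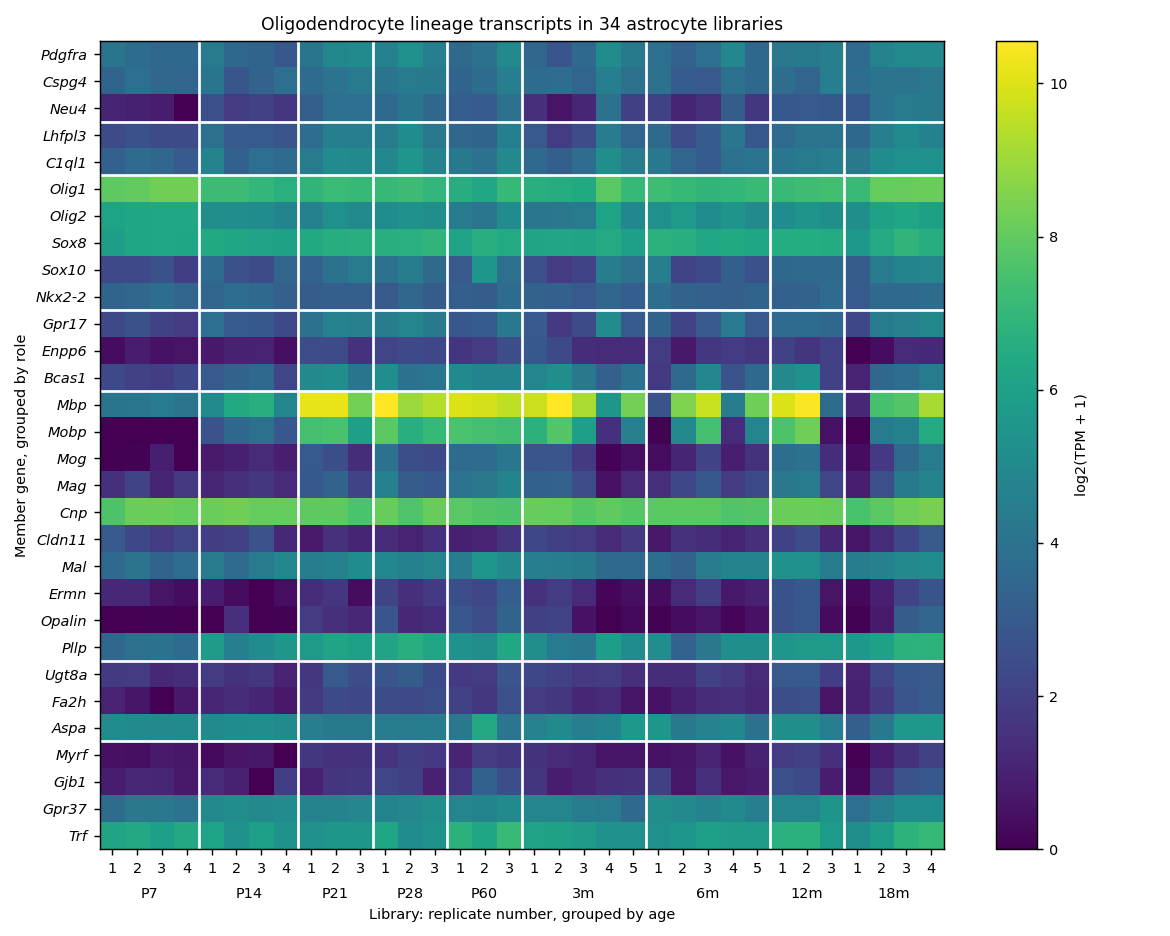
Level of each of the 30 genes (rows, grouped by role, log2(TPM + 1) as colour) in each of the 34 libraries (columns, replicate numbers grouped by age, white lines between ages and roles). Mobp was listed at 0 in the 4 P7 libraries, and 18m replicate 1 had the lowest level of all 30 genes among the 18m libraries.

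Promoter sequence is shown for 3 members whose levels the results turn on, the myelin genes Mog and Opalin and the precursor gene Pdgfra. Each window runs from 250 bases before to 50 after the start of the gene in RefSeq (GRCm38.p6), printed 5′ to 3′ on the strand of the gene. Capitals mark matches, on either strand, to CTGGNAC, a core bound by the myelin regulatory factor Myrf, to ACAAAG, a core bound by Sox factors, and to CAGCTG, an E-box form bound by basic helix-loop-helix factors such as the Olig proteins. The Mog window is chr17:37023349-37023648 on the minus strand and holds 1 match to CTGGNAC. The Opalin window is chr19:41077064-41077363 on the minus strand and holds 1 match to CTGGNAC, 2 to ACAAAG and 1 to CAGCTG. The Pdgfra window, chr5:75152001-75152300 on the plus strand, has no match to any of them.
Mog: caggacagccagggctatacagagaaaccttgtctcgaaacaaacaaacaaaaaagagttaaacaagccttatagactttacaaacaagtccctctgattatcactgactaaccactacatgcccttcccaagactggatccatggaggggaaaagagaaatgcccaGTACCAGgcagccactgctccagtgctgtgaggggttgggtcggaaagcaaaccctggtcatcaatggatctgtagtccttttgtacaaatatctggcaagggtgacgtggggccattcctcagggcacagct
Opalin: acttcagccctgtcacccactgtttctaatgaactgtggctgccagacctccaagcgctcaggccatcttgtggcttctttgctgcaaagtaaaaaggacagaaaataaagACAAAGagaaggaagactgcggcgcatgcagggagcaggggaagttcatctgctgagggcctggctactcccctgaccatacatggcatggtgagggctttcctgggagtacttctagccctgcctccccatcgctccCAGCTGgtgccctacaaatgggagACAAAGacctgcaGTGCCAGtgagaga
Pdgfra: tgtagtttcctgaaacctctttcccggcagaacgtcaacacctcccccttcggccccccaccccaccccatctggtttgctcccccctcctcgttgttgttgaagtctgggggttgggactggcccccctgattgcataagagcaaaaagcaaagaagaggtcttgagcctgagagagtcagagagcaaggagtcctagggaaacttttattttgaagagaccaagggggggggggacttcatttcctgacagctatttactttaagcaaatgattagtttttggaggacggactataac
Promoter windows were found for 21 members, 26 windows in all. CTGGNAC was in 9 of these 26 windows (34.6%), those of Cnp, Gjb1, Gpr37, Mag, Mog, Opalin and Sox8, and in 19.3% of all 32851 windows. ACAAAG was in 7 (26.9%), of 5 genes, against 18.7% of all windows, and CAGCTG in 3 (11.5%) against 16.3%. These are matches of letters and not measured binding.

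Across the 9 ages, 23 of the 30 members differed between ages by the limma F test (adjusted p under 0.05), while 63.6% of all genes tested did. Of the myelin genes, Cnp (adjusted p = 0.111), Aspa (0.707) and Gjb1 (0.146) were not called by this limma test. Neither were the precursor genes Pdgfra (0.0629) and Cspg4 (0.163) nor the factors Sox8 (0.0603) and Nkx2-2 (0.313).

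Precursor transcripts were present at every age. Pdgfra, which encodes the receptor through which growth factor drives precursor division (chromosome 5, 75152292 to 75198215), ranged from 6.00 TPM in 3m replicate 2 to 38.4 TPM in P28 replicate 2. Its mean was 12.4 ± 2.29 TPM (SD, n = 4) at P7, 28.1 ± 9.0 (SD, n = 3) at P28, 15.8 ± 10.7 (SD, n = 5) at 3m and 25.0 ± 9.29 (SD, n = 4) at 18m. Its libraries overlapped between these ages apart from P7 and P28, and it was called in none of the 8 comparisons. None of those comparisons took in P28 or 12m, so the difference between P7 and P28 was not tested by itself. After median-of-ratios rescaling of the TPM it was called higher at P21 than at P14 and at 18m than at 3m. Cspg4, a membrane proteoglycan of precursors, stayed between 5.99 and 22.1 TPM in all 34 libraries and was likewise called in none of the 8 comparisons. Cspg4 is also a gene of pericytes and Pdgfra one of fibroblasts, and those cell types did not keep a steady level. Mural markers summed to 2344 to 3608 TPM at P7 and to 2697 to 5215 TPM at P60, and fibroblast markers to 451 to 748 TPM at P7 and to 190 to 245 TPM at P60. Their part in the Pdgfra and Cspg4 levels was not tested.

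Neu4, a sialidase of the same precursors (chromosome 1, 94020451 to 94028334), followed another course. At P7 its 4 libraries had 1.15, 0.914, 0.731 and 0.0241 TPM, at P14 5.0, 2.52, 3.07 and 2.19 TPM, and at P21 8.24, 13.6 and 13.3 TPM. The 3 ages did not overlap. At 3m it had 1.77, 0.463, 1.17, 14.6 and 3.00 TPM, so that 1 library of 5 lay above the P21 libraries and the others within the span of P7 and P14. At 18m it had 6.38, 15.2, 19.8 and 18.1 TPM, the highest mean of any age (14.9 ± 5.96, SD, n = 4). Set against Pdgfra in the same library, the Neu4 level was 0.00226 to 0.0745 times that of Pdgfra at P7, 0.423 to 0.509 times at P21, 0.484 to 0.668 times at P60, 0.0772 to 0.436 times at 3m and 0.539 to 0.606 times at 18m. The 18m ratios overlapped those of P60, which held the highest value of all libraries, and lay above those of P7, P21 and 3m.

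The committed-stage genes differed among themselves. Gpr17, a receptor of cells that have left the precursor state, had 2.60 to 5.15 TPM at P7, 4.05 to 13.3 at P14, 14.8 to 24.6 at P21, 18.4 to 27.3 at P28 and 6.24 to 18.0 at P60. The P21 and P28 libraries lay above all P7 and P14 libraries. Its level was 0.245 to 0.420 times that of Pdgfra at P7, 0.623 to 0.715 times at P14, 0.739 to 0.916 times at P21, 0.710 to 0.897 times at P28 and 0.500 to 0.584 times at P60. The P28 ratios overlapped those of P14 and P21, and the other ages named here did not overlap. Enpp6, a choline phosphodiesterase of newly forming oligodendrocytes (chromosome 8, 46986887 to 47096762), had 0.284 to 1.08 TPM over the 8 P7 and P14 libraries and 1.85 to 4.68 TPM over the 9 libraries of P21, P28 and P60. Bcas1, which marks early myelinating cells, had 2.94 to 4.02 TPM at P7 and 26.3, 26.5 and 31.4 TPM at P60.

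**Figure D2:**
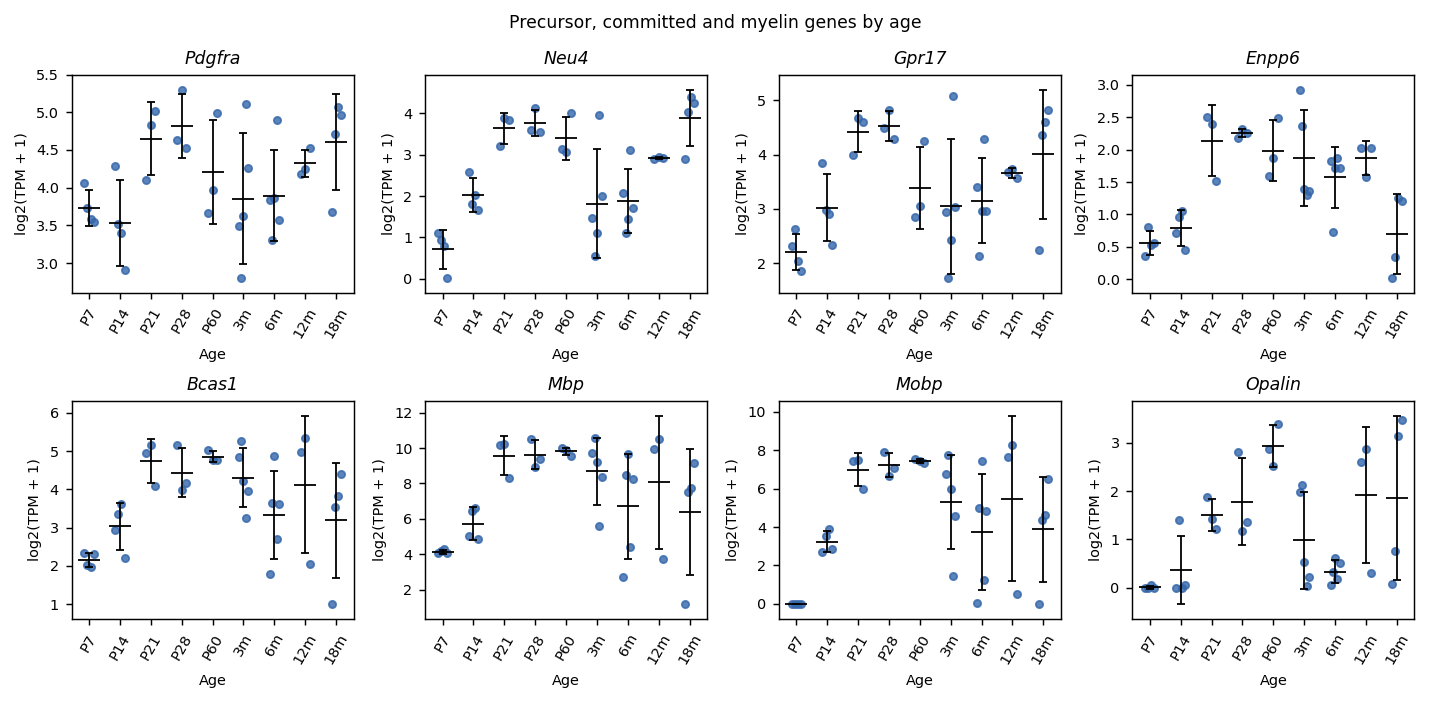
Levels of 8 members (panels, log2(TPM + 1)) by age, with 1 point per library and the mean ± SD of the libraries of an age. Mbp ran from 15.5 to 18.6 TPM at P7 and from 1.30 to 578 TPM at 18m, and Neu4 had its highest mean at 18m.

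Between P7 and P14, 2 members rose and 2 fell, where 3.28% of all genes tested rose and 8.57% fell. Olig2, a transcription factor required for the oligodendrocyte lineage (chromosome 16, 91225457 to 91228677), had 68.1, 73.6, 78.3 and 79.6 TPM at P7 and 36.6, 35.2, 32.9 and 26.0 TPM at P14. Every P14 library lay below every P7 library, and Olig2 fell 2.29-fold in mean TPM (log2 fold change -1.18 ± 0.29 SE, limma adjusted p = 0.0115). Its neighbour Olig1 (chromosome 16, 91269772 to 91271933) fell from 279 ± 31.9 to 132.5 ± 23.4 TPM (SD, n = 4 each; limma adjusted p = 0.00544). Both genes are also active in the glial progenitors from which astrocytes arise. The genes that rose were Pllp, a proteolipid of myelin membrane, from 12.8 ± 1.78 to 39.5 ± 14.6 TPM (SD, n = 4 each; limma adjusted p = 0.016), and Gpr37, a receptor of myelinating cells, from 15.6 ± 2.46 to 32.0 ± 2.15 TPM (SD, n = 4 each; limma adjusted p = 0.0081). Without P14 replicate 4 Pllp missed the threshold (limma adjusted p = 0.0527, range over 13 alternatives 0.00219 to 0.0527), and 1 member rose, with no share of all genes taken for that fit. The median log2 fold change of the 30 members was 0.19 and that of all genes -0.10. With TPM rescaled by median-of-ratios the median of all genes was 0.00 and the share of all called genes that rose went from 27.7% to 63.7%; Pllp and Gpr37 rose and Olig1 and Olig2 fell on that scale too, and Neu4 joined those that rose.

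Mobp and Mbp were higher in each P14 library than in any P7 library without being called. Mobp, a structural protein of compact myelin (chromosome 9, 120149707 to 120181484), was listed at 0 in all 4 P7 libraries and had 5.48, 10.6, 13.8 and 6.21 TPM at P14. Mbp, the main cytoplasmic adhesive of compact myelin, had 15.5, 16.9, 18.6 and 15.8 TPM at P7 and 31.3, 85.0, 97.2 and 27.8 TPM at P14. Neither was called (limma adjusted p = 0.512 for Mbp and 0.156 for Mobp). Both genes varied so widely among adult libraries that the standard error of the Mbp difference was 1.54 on the log2 scale. A fit of the P7 and P14 libraries alone, with their own smaller spread, called 8 members higher. The share of all genes called in that fit was not taken.

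From P14 to P21, 3 members rose and none fell, where 5.6% of all genes rose and 7.59% fell. Myrf, the factor that switches on myelin genes, had 0.208, 0.492, 0.602 and 0 TPM at P14 and 2.29, 1.86 and 1.91 TPM at P21. The groups did not overlap (log2 fold change 1.21 ± 0.31 SE, limma adjusted p = 0.0106). Enpp6 rose 4.75-fold, to 4.68, 4.25 and 1.85 TPM at P21 (limma adjusted p = 0.0117), and Neu4 rose 3.67-fold (limma adjusted p = 0.0391). Neu4 missed the threshold in 7 of 12 alternatives (limma adjusted p up to 0.144) and Enpp6 in 2 (up to 0.0763), those without P21 replicate 1 or 2. Without either of those libraries 1 member rose, and without P14 replicate 1 there were 5. Shares of all genes called were not taken in these fits. Mbp had 1160, 1179 and 315 TPM at P21 and Mobp 172, 181 and 62.2 TPM, all above the P14 libraries, with limma adjusted p = 0.12 and 0.131. In a fit of P14 and P21 alone 14 members were higher and 3 lower, and the share of all genes called in that fit was not taken. The rescaled TPM moved the share of all called genes that rose from 42.4% to 63%.

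Over the whole of development, P60 against P7, 18 members rose and 3 fell, while 19.5% of all genes rose and 33.3% fell. The median log2 fold change of the members was 1.24 and that of all genes -0.15 (0.01 after rescaling, where 56.9% of called genes rose in place of 36.9%). By role, 8 of 10 myelin membrane genes rose and Cldn11 fell, and 3 of 4 other myelinating-stage genes rose, as did 2 of 3 committed genes. Among precursor genes Neu4, Lhfpl3 and C1ql1 rose and Pdgfra and Cspg4 were not called. Of the transcription factors Sox10 rose and Olig1 and Olig2 fell. After rescaling Sox8 and Gpr17 rose too.

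Mog, a myelin surface glycoprotein (chromosome 17, 37010743 to 37023398) whose promoter is printed above, had 0, 0.0542, 0.832 and 0 TPM at P7 and 12.0, 12.1 and 16.8 TPM at P60. It rose by a log2 fold change of 3.62 ± 0.75 SE (limma adjusted p = 0.000507), with most of its P7 mean coming from replicate 3. Opalin, a protein of the paranodal loops (chromosome 19, 41061710 to 41077113) with its promoter also above, was listed at 0 in 3 of 4 P7 libraries and had 6.34, 4.71 and 9.39 TPM at P60 (limma adjusted p = 0.000999). Mbp rose 53.9-fold, to 1017, 931 and 756 TPM at P60 (limma adjusted p = 0.00704). Mag, an adhesion protein that faces the axon, rose 8.88-fold (limma adjusted p = 0.0029), Bcas1 8.03-fold (0.00346), Ermn, which shapes the cytoskeleton of myelinating cells, 6.65-fold (0.00554), and Fa2h, which hydroxylates myelin lipids, 6.26-fold (0.00405). Mobp, listed at 0 at P7, had 186, 173 and 158 TPM at P60 (limma adjusted p = 0.00103). For each of these genes the P60 libraries lay above all P7 libraries. Mal, a raft proteolipid, rose less, 2.68-fold (limma adjusted p = 0.00167), and Pllp 4.05-fold (0.000901). Ugt8a, which makes galactosylceramide, had 1.31, 1.62, 2.48 and 2.58 TPM at P7 and 2.41, 2.66 and 5.86 TPM at P60. It overlapped and was not called (limma adjusted p = 0.179), and its highest mean, 5.91 TPM, was at P28.

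Several genes classed with myelin did not share this course. Cnp, an enzyme of the cytoplasmic channels of myelin, had 192, 281, 290 and 265 TPM at P7, when Mobp was listed at 0, and 230, 206 and 192 TPM at P60. Aspa, which releases acetate for lipid synthesis, had 30.1 to 34.5 TPM at P7 and 17.6, 82.6 and 16.8 TPM at P60. Trf, the iron carrier transferrin, had 61.4 to 82.0 TPM at P7 and 108, 72.2 and 143 TPM at P60. The libraries of the ages overlapped for all 3 genes and none was called (limma adjusted p = 0.124, 0.843 and 0.21). Cldn11, the tight junction protein of myelin, fell from 6.69, 3.87, 2.72 and 3.59 TPM at P7 to 0.919, 1.04 and 2.03 TPM at P60 (limma adjusted p = 0.017). It lost its call in 3 of 12 alternatives (limma adjusted p up to 0.0684), those leaving out P7 replicate 1, P60 replicate 1 or P60 replicate 2. In the same comparison 5 of 6 fibroblast and 5 of 7 endothelial markers fell, as did 33.3% of all genes. The part of those cell types in the Cldn11 values was not tested. Nkx2-2, a homeobox factor of the lineage, held between 6.72 and 13.3 TPM over all 34 libraries. Sox8 also stood between 49.2 and 119 TPM in all 34 libraries, at levels above those of Sox10 (2.66 to 46.0 TPM).

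Olig1 and Olig2 fell 2.76-fold and 3.26-fold from P7 to P60 (limma adjusted p = 8.02e-05 and 0.000158), the opposite direction to 8 of 10 myelin membrane genes. Neu4 rose 14.2-fold (limma adjusted p = 0.00031), Lhfpl3, a membrane protein enriched in precursors, 3.12-fold (0.0138) and C1ql1, a secreted complement-like protein, 2.24-fold (0.0243). Without P60 replicate 3 neither Lhfpl3 nor C1ql1 was called (limma adjusted p = 0.102 and 0.14, the highest of 12 alternatives each), and C1ql1 was not called without P7 replicate 4. Sox10 rose 5.52-fold (limma adjusted p = 0.0121), a value that rests on P60 replicate 2, described below. In the same comparison 8 of 11 neuronal markers rose, and their sum went from 42.4 to 68.2 TPM at P7 to 312 to 617 TPM at P60. Their part in the rise of the myelin genes was not tested. The age step from P21 to P60 gave no call among the members by limma, with 2 of 30 at an unadjusted p under 0.05 (15.8% of all genes), where 1.5% of all genes rose and 0.356% fell.

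**Figure D3:**
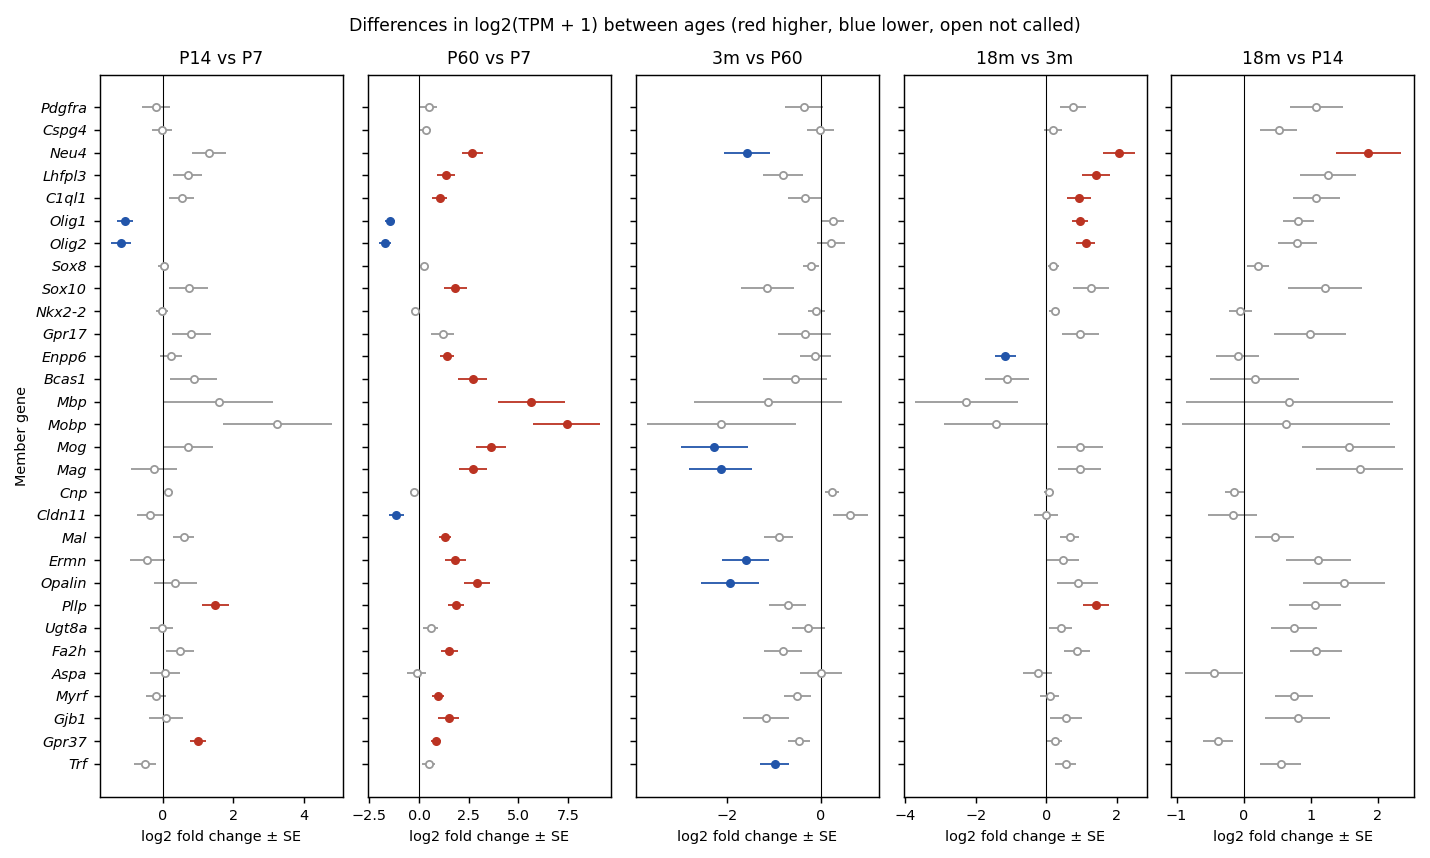
Fitted difference in log2(TPM + 1) of each member (rows) in 5 comparisons (panels), as point and standard error, filled red where higher, filled blue where lower and open where not called by limma at an adjusted p under 0.05. P60 against P7 had 18 members higher and 3 lower, and the standard errors of Mbp and Mobp were the widest.

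From 3m on, Mbp and Mobp differed widely between libraries of 1 age. At 3m, Mbp had 844, 1504, 586, 46.8 and 323 TPM in replicates 1 to 5. At 6m it had 5.58, 360, 819, 20.3 and 300.1 TPM, at 12m 983, 1449 and 12.3 TPM, and at 18m 1.30, 179, 214 and 578 TPM. The lowest library of each of these ages except 3m lay below every P7 library. Mobp followed in the same libraries, with 1.75 TPM in 3m replicate 4, 0.0495 in 6m replicate 1, 1.361 in 6m replicate 4, 0.428 in 12m replicate 3 and 0.0107 in 18m replicate 1, against 19.3 to 311 TPM in the other adult libraries from 3m on.

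Libraries low in Mbp were not all low in precursor transcripts. Library 3m replicate 4 had the lowest level of 9 members among the 3m libraries, Mbp, Mobp, Mog, Mag, Cldn11, Ermn, Opalin, Enpp6 and Bcas1. It had the highest level of 12 others, among them Pdgfra (33.4 TPM against 6.00 to 18.1), Gpr17 (32.6 against 2.32 to 7.22), Neu4 (14.6 against 0.463 to 3.00) and Olig2 (69.7 against 16.6 to 29.3). Its astrocyte marker sum was the lowest at 3m (11315 TPM against 14597 to 19379), and its mural sum the highest (3009 against 2256 to 2724). Its endothelial and fibroblast sums lay within the span of the other 3m libraries. The part of these in its values was not tested. Library 12m replicate 3 was the lowest of 18 members and the highest of 8, among the latter Cspg4 (22.1 TPM against 12.7 and 10.03). Mural markers, whose cells also express Cspg4, summed to 3539 TPM in that library against 2451 and 1713 TPM, and it had 1615 genes at 0 against 4556 and 4532, and the part of these was not tested. At 18m the pattern was different, since replicate 1 was the lowest of all 30 members and replicate 4 the highest of 22. After rescaling, which divided replicate 1 by 0.725 and the others by 0.918 to 0.993, replicate 1 was the lowest of 27, all but Cspg4, Mal and Cnp. Between those 18m libraries 11 members differed more than 10-fold, all of them committed or myelinating-stage genes, such as Mbp (444-fold) and Mag (30.7-fold). Another 6 differed less than 2-fold, Cspg4 (1.35-fold), Mal (1.61-fold), Olig2 (1.67-fold), Nkx2-2 (1.77-fold), Cnp (1.83-fold) and Sox8 (1.94-fold). Replicate 1 at 18m also had the highest mural marker sum of all libraries (5793 TPM) and the lowest neuronal sum at 18m (66.2 TPM), and the part of these in its values was not tested.

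These contrasts were measured as deviations of each library from the mean of its age, in log2(TPM + 1), for 6 pairs of genes chosen after their values were seen. Neither the permutations nor the adjustment over the 6 pairs accounts for that choice, so the p-values only describe these pairs. Pdgfra and Gpr17 deviated together (Pearson r = 0.923, Spearman rho = 0.906, n = 34, permutation p = 1e-05 for each, the smallest that these permutations can give, adjusted p = 3e-05 and 6e-05). Without the 2 libraries farthest from the median r was 0.893, and within the 3 ranges of genes at 0 it was 0.924, 0.964 and 0.936. At 12m the age mean joins libraries of different ranges, and permutations exchanged them. Values of r within the ranges, here and below, are thus not free of range at that age. Mbp and Camk2a, a kinase of neurons, also deviated together (r = 0.897, rho = 0.826, n = 34, permutation p = 1e-05 and 2e-05, adjusted p = 3e-05 and 6e-05). For that pair r was 0.869 without the 2 farthest libraries, and 0.897, 0.577 and 0.925 within the ranges. It was 0.756 over the 29 libraries left without the 5 whose Mbp lay farthest below the mean of their age. For Mbp and Pdgfra the relation did not pass the threshold (r = -0.202, rho = -0.286, n = 34, permutation p = 0.317 and 0.13, adjusted p = 0.38 and 0.241), and r was -0.448 without 18m replicate 1 and 12m replicate 3. Within the ranges the sign differed, with r = 0.559 over the 14 libraries with most genes at 0, which hold 18m replicate 1, and -0.545 and -0.634 in the others. Mbp and Gpr17 gave r = -0.07 (permutation p = 0.761), with -0.431 without the same 2 libraries and 0.762, -0.343 and -0.622 within the ranges, so that the pooled value joins ranges of opposite sign. Pdgfra and Camk2a gave r = -0.265 (permutation p = 0.185), with -0.058 without 3m replicate 4 and 6m replicate 4 and 0.396, -0.37 and -0.569 within the ranges. Mbp and the astrocyte transporter gene Slc1a3 gave 0.263 (permutation p = 0.299), with 0.107 without 18m replicate 1 and 12m replicate 3 and 0.673, -0.316 and 0.038 within the ranges. Within 3m to 18m the neuronal marker sum was 56.4 TPM in 6m replicate 1, 54.4 in 6m replicate 4, 75.8 in 12m replicate 3 and 66.2 in 18m replicate 1, the 4 libraries with least Mbp. The next in Mbp, 3m replicate 4 (46.8 TPM), had a neuronal sum of 137 TPM. That was above the sums of 18m replicate 3 (89.1), 18m replicate 4 (110.1) and 6m replicate 5 (109.7), which had more Mbp.

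**Figure D4:**
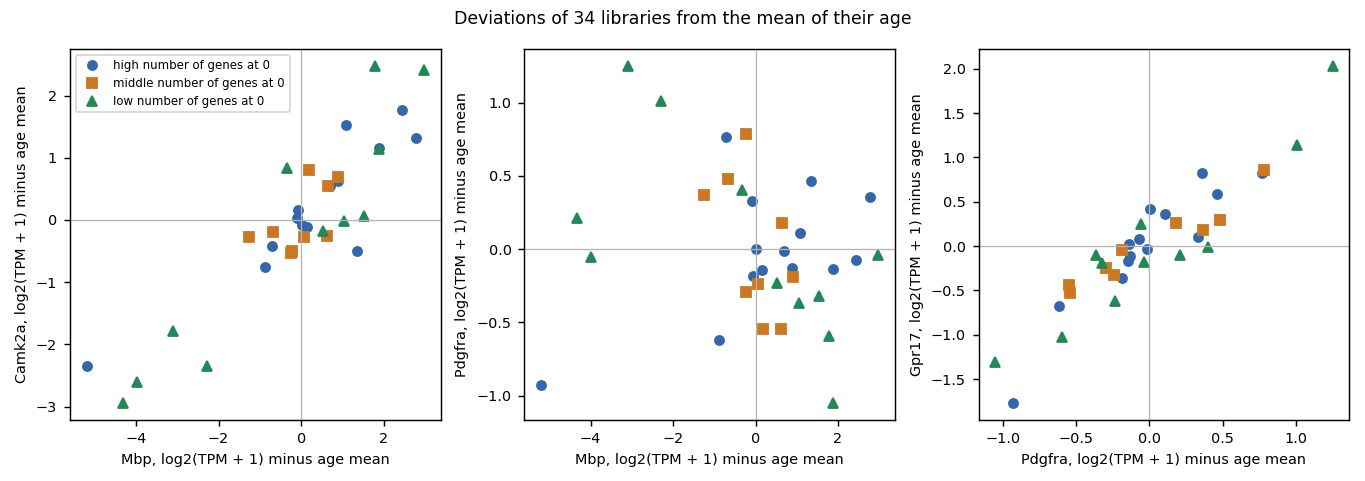
Deviation of each of 34 libraries from the mean of its age, in log2(TPM + 1), for 3 pairs of genes, with colour and shape for the 3 ranges of how many genes were at 0. Over all libraries r was 0.897 for Mbp and Camk2a, 0.923 for Pdgfra and Gpr17 and -0.202 for Mbp and Pdgfra. Within the high, middle and low ranges it was 0.897, 0.577 and 0.925 for Mbp and Camk2a. For Pdgfra and Gpr17 it was 0.924, 0.964 and 0.936, and for Mbp and Pdgfra 0.559, -0.545 and -0.634.

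The adult comparisons have to be read against this spread. From P60 to 3m, 6 members fell and none rose, where 8.26% of all genes rose and 1.93% fell. They were Ermn, Mag, Mog, Opalin, Trf and Neu4. Mog had 12.0, 12.1 and 16.8 TPM at P60 and 5.90, 5.79, 2.49, 0.0614 and 0.347 TPM at 3m, with no overlap, a 4.67-fold difference in means (log2 fold change -2.28 ± 0.72 SE, limma adjusted p = 0.0403). Mag fell 3.99-fold and Ermn 4.37-fold without overlap (limma adjusted p = 0.0406 and 0.039). Mbp, by contrast, had 756 to 1017 TPM at P60 and overlapped with 3m (limma adjusted p = 0.713). Each of the 6 calls lay close to the threshold. The count was 0 without P60 replicate 3 or 3m replicate 5, and 1 without P60 replicate 1, P60 replicate 2, 3m replicate 3 or 3m replicate 4. Rescaling turned the split of all called genes from 81% higher to 48.9%, with the median of all genes going from 0.12 to -0.03. On that scale 8 members fell, where 4.72% of all genes tested fell. From 3m to 6m limma called none of the members, with 2 of 30 at an unadjusted p under 0.05 against 25.1% of all genes, where 2.07% of all genes rose and 7.25% fell. Without 3m replicate 4, 1 member was higher at 6m. Shares of all genes called were not taken in the fits that left out a library.

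From 3m to 18m, 6 members rose and 1 fell, where 4.16% of all genes rose and 33.4% fell. Those that rose were 3 precursor genes, Neu4, Lhfpl3 and C1ql1, the factors Olig1 and Olig2, and Pllp. Neu4 rose 3.54-fold in mean TPM (limma adjusted p = 0.00118, log2 fold change 2.06 ± 0.46 SE). Of its 4 libraries at 18m, 3 lay above all 3m libraries. Olig1 had 138, 269, 274 and 281 TPM at 18m and 101, 90.7, 83.9, 232 and 133 TPM at 3m (limma adjusted p = 0.00151). Olig2 (limma adjusted p = 0.00256), Pllp (0.0044) and Lhfpl3 (0.00678) showed the same overlap, in which 3m replicate 4 was high and 18m replicate 1 low. C1ql1 (limma adjusted p = 0.0323) lost its call in 7 of 14 alternatives, with adjusted p up to 0.104. Enpp6 fell from 6.601, 4.15, 1.64, 1.46 and 1.57 TPM at 3m to 0.0188, 0.266, 1.38 and 1.30 TPM at 18m, without overlap (log2 fold change -1.17 ± 0.30 SE, limma adjusted p = 0.00404). Gpr17, also of the committed stage, had 18.4 ± 10.3 TPM at 18m (SD, n = 4) and 10.7 ± 12.4 TPM at 3m (SD, n = 5). It was not called (limma adjusted p = 0.141) and was called higher after median-of-ratios rescaling. Bcas1 (limma adjusted p = 0.165), Mbp (limma adjusted p = 0.226) and Mog (0.258) were not called in either direction.

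The count at 18m depended on scale and on 1 library. All genes had a median log2 fold change of -0.24, and after rescaling -0.02. On the rescaled values 15 members rose and 1 fell, where 17.6% of all genes tested rose and 19% fell. The share of all called genes that rose was then 48.1% in place of 11.1%. The 6 members above rose and Enpp6 fell on both scales. Without 18m replicate 1, 14 members rose, in a fit whose share of all genes called was not taken. The neuronal markers went the other way in this comparison, with 7 of 11 lower at 18m (sum 66.2 to 157 TPM, against 137 to 560 TPM at 3m). Of the 12 astrocyte markers, 7 fell and 2 rose (5 and 2 after rescaling), and 3 of 6 fibroblast and 2 of 8 microglial markers fell. The part of these lists in the members' values was not tested. Since 3m and 18m lie in different ranges of genes at 0, 18m was also set beside P14, which lies in the same range. P14 is an age of development, at which Neu4 was still below its P21 levels. That comparison thus joins development with aging and cannot decide whether 18m differs from 3m apart from range. There Neu4 alone rose, 4.65-fold without overlap (log2 fold change 1.86 ± 0.48 SE, limma adjusted p = 0.0357), where 0.48% of all genes rose and 2.02% fell. In that comparison 6 of 12 astrocyte markers fell (3 after rescaling). An unadjusted p under 0.05 was reached by 15 of 30 members there (17.1% of all genes), Neu4 included, among them Olig1 (limma adjusted p = 0.0522) and C1ql1 (0.0963). The Neu4 call was lost on leaving out any 1 of the 4 P14 libraries or 18m replicate 2, 3 or 4 (limma adjusted p 0.0126 to 0.115 over 13 alternatives). Without 18m replicate 1, 5 members rose from P14 to 18m, again in a fit whose share of all genes called was not taken.

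P60 replicate 2 stood apart in some members and not in others. It had 46.0 TPM of Sox10, the factor that drives oligodendrocyte genes, against 6.78 and 13.9 TPM in the other P60 libraries. Aspa was at 82.6 TPM in it, against 17.6 and 16.8 TPM, and Gjb1, a connexin of myelin, at 8.71 TPM, against 2.09 and 4.74 TPM. Mal (46.2 TPM), Myrf and Sox8 were also highest in it at P60, making 6 members in all, while it was the lowest of 12. Mobp, Mog and Opalin were not raised in it. The sum of the 20 other myelin genes listed below was 3396 TPM in it, against 2440 and 2262 TPM. Its mural marker sum was 5215 TPM, against 2697 and 4860 TPM, and the part of mural cells was not tested. In 6m replicate 1 Sox10 stood at 22.0 TPM, above 3.42 to 8.22 TPM in the other 6m libraries, beside the lowest Mbp of that age. Without P60 replicate 2 the calls of Sox10, Gjb1, Myrf and Cldn11 from P7 to P60 were lost (limma adjusted p = 0.135, 0.121, 0.062 and 0.0564). Camk2a was picked out after its values were seen.

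Lists of further lineage genes were read in the same way. From P7 to P60, 9 of 20 other myelin genes rose and 3 fell, 4 of 9 other committed genes rose and 2 fell, and 3 of 12 other precursor genes rose and 5 fell. Of all genes tested 19.5% rose and 33.3% fell there. The 3 most abundant of each list, named by rule, were these. Car2, the carbonic anhydrase of glia, rose 1.47-fold (limma adjusted p = 0.0108), Plekhb1 3.09-fold (0.000895), and Cd9, a tetraspanin, fell 2.49-fold (0.000649). Itpr2, an intracellular calcium channel, rose 1.47-fold (limma adjusted p = 0.0284), Tcf7l2, a factor of differentiating oligodendrocytes, 1.34-fold (0.0426), and Fyn, a kinase, fell 1.42-fold (0.0087). Emid1 fell 4.70-fold (limma adjusted p = 0.000154), Rlbp1 fell 1.78-fold (0.00919), and Sox6, a factor of precursors, was not called (33.0 against 32.3 TPM). Such genes stood at high levels in every library, Car2 between 468 and 1106 TPM and Cd9 between 239 and 1307 TPM. From 3m to 18m, 2 of 20 other myelin genes rose and 1 fell, 2 of 9 committed genes rose and 2 fell, and 1 of 12 precursor genes rose. Of all genes 4.16% rose and 33.4% fell in that step. From P60 to 3m, Emid1 (precursor) and Cd9 (myelin) rose, and Nkx6-2 (committed) and Hapln2 (myelin) fell (8.26% and 1.93% of all genes). From 3m to 6m, Cd9 and Plekhb1 fell, where 7.25% of all genes fell. In the first step, P7 to P14, 5 of 12 other precursor genes and 1 of 9 committed genes fell, and 2 of 20 myelin genes, Car2 and Il33, rose. Of all genes 8.57% fell and 3.28% rose in it. From P14 to P21, Cacng4 (precursor) and S1pr5 (myelin) rose and Ppp1r14a (myelin) fell (5.6% and 7.59% of all genes). From P21 to P60, Hapln2 and Qdpr, both on the myelin list, rose (1.5% of all genes). From P14 to 18m Tmem163 (committed) was the only call, and it rose (0.48% of all genes). Genes of these lists outside the rule are named here because the counts are small, after their values were seen.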

How the data were processed

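Polyadenylated RNA was sequenced from 34 libraries of cortical astrocytes. Per the labels' protocols, cDNA was made with a template-switching kit for low input. The deposited values are TPM per gene, made by the authors, 1 column per library. Per the submitters' processing notes, Trim Galore 0.6.4, STAR 2.7.1a, RSEM 1.2.28, DESeq2 1.36.0 and build mm10 were used, with no role given. Depth is unknown, so no counting interval is given, and a gene listed at 0 may be a failed estimate.

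Tests on log2(TPM + 1), a scale that understates changes of low genes, took genes that reached 1 TPM in 3 or more libraries. The 34 libraries entered 1 limma 3.58.1 model with a mean for each age (trend and robust empirical Bayes, statmod 1.5.0, R 4.3.3), with Benjamini-Hochberg adjustment over 14590 genes and a threshold of 0.05, two-sided. "Rose" and "fell" are calls of this test. Folds are ratios of mean TPM. The method was tested on simulated data. Correlations used 100000 two-sided permutations within ages, adjusted over the 6 pairs, which does not cover the choice of the pairs.

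All 30 members are described, and of the other lists the 3 genes of highest mean TPM. Members and lists were chosen with earlier results of these data known. Positions come from GENCODE M21 (GRCm38), which held all 30 members. Positions and promoters are not given for every member. Replicate numbers do not pair libraries across ages. Alternatives were a pseudocount of 0.1, no filter, median-of-ratios rescaling, a fit of only the 2 ages, a replicate block and leaving out each library in turn. Some genes are not reported here. Figures used matplotlib 3.10.9, with pandas 2.3.3 and numpy 2.4.6 in Python 3.11.15.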

Additional observations from a re-analysis of the deposited data

Results flagged for a closer look

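In groups of 4 or 5 libraries, the highest or lowest library was set against the others by Dixon's ratio of its gap to the range of the group. Of 150 groups tested, 6 passed the 95% limit, where chance flags about 1 in 20 groups. Lhfpl3 at P7 was highest in replicate 2, at 5.23 TPM. Olig1 at 18m was lowest in replicate 1, at 137.5 TPM. Enpp6 at 6m was lowest in replicate 2, at 0.666 TPM. Mog at P7 was highest in replicate 3, at 0.832 TPM, and so was Opalin, at 0.0402 TPM, with the other 3 P7 libraries listed at 0. Any Opalin value above 0 would have passed the limit there, so that flag says nothing about its size. Opalin at P14 was highest in replicate 2, at 1.66 TPM.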

How the results depend on the processing

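Over the fold changes of members under the alternatives, 2932 of the values (94.9%) kept their side of the threshold, 84 lost a call and 74 gained one. None of the values called in either fit changed direction. The 2932 include values called in neither fit, whose direction could change, so that 94.9% does not measure how stable the calls were. Each of the 6 calls from P60 to 3m was lost in 7 to 10 of 13 alternatives. With a pseudocount of 0.1, 4 members rose from P7 to P14, 1 fell from P60 to 3m and 0 rose from P14 to 18m. With no filter, 3 fell from P60 to 3m. With median-of-ratios rescaling, 1 rose from P21 to P60, 1 from 3m to 6m, 15 from 3m to 18m and 4 from P14 to 18m. In these comparisons the share of called genes that rose went from 80.8% to 58.5%, 22.2% to 46.5%, 11.1% to 48.1% and 19.2% to 45.9%. Of all genes tested, 1.56%, 6.09%, 17.6% and 1.18% rose in them on that scale. In fits of only the 2 ages, 8 rose from P7 to P14, 14 rose and 3 fell from P14 to P21, and 3 rose from P21 to P60. Shares of all genes called were taken only in the main and rescaled fits. The member counts of the other alternatives thus have no such share beside them.

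Leaving out each library in turn gave 1 to 2 members higher from P7 to P14, 1 to 5 from P14 to P21, 0 to 1 from 3m to 6m, 5 to 14 from 3m to 18m and 0 to 5 from P14 to 18m, and 0 to 6 lower from P60 to 3m. It gave 15 to 18 higher from P7 to P60 and 20 to 27 over the 9 ages. Replicate numbers did not pair libraries: deviations of 119 same-numbered pairs correlated by 0.0023 on average, and 26 pairs by over 0.1. With a replicate block 1 member fell from P60 to 3m and 2 rose from P14 to 18m, and no other count moved by more than 1.5 times. TPM hold no depth, so precision rests on the number of libraries, and ages in different ranges of genes at 0 cannot be told apart from those ranges.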
